A study of Caenorhabditis elegans with 26 samples.

Results

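Nuclear hormone receptors are transcription factors that carry a zinc finger domain for DNA and a second domain that can hold a small molecule such as a fatty acid, sterol or metabolite. Most animals have a modest set of them, whereas nematodes carry a large expansion that derives from an ancestor like vertebrate HNF4, and most of its members have no known ligand. In C. elegans the best studied of them act in the intestine, where they tune fat breakdown, the use of dietary metabolites and responses to toxins. The genes described here are those that the WormBase gene name numbers as nhr, leaving out the 7 receptors nhr-10, nhr-23, nhr-25, nhr-41, nhr-67, nhr-85 and nhr-91, which are known from molting or timing or, as nhr-10, from propionate breakdown. By that rule 261 of the 20182 genes in the count table were members, out of 268 numbered nhr genes. The rule reads names and no measured value, but it was set with earlier results of these data known.

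All libraries came from whole wild-type larvae of strain N2, plated on bacteria after hatching overnight, and total RNA was sequenced after ribosomal RNA depletion. The first course, called OP50 below after its food, is 16 libraries, 1 for each hour from 21 to 36 h by title, from plates spread with the bacterium OP50 (course A in the titles). The second, called NA22, is 10 libraries, 1 every 2 h from 18 to 36 h, from peptone-rich plates spread with the bacterium NA22 (course B in the titles). On OP50 the harvest came 1 h after the titled time, and the labels tie this to slow growth. All times below are title times. Totals ran from 16241561 to 29911888 counts on OP50 and from 22587893 to 36083371 on NA22, so 3 counts, the most that a count of 0 allows, correspond to 0.0932 to 0.185 CPM (counts scaled to a common library total, here with TMM factors). No time point has a second library, so every p-value measures the scatter of libraries around a fitted curve or between matched pairs, not the spread between cultures. The names stand for more than food, since the bacterium, the plates and the day of culture differ together.

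All 261 members are annotated as protein coding in the Ensembl 115 annotation of WBcel235, and 166 of them (63.6%) lie on chromosome V, which holds 25.2% of all genes in the table. Chromosome IV holds 31, chromosomes I and X hold 21 each, chromosome II holds 15 and chromosome III holds 7. Of all members, 135 sit directly beside another numbered nhr gene. A total of 9 had no count in any library (nhr-174, nhr-241, nhr-244, nhr-248, nhr-257, nhr-259, nhr-261, nhr-267 and nhr-291). Enough counts for a test were present for 201 members on OP50 (77.0%, against 78.7% of all genes) and for 191 on NA22 (73.2%, against 74.3%). The test was possible in both courses for 189, on OP50 alone for 12, on NA22 alone for 2 and in neither for 58, whose mean level was at most 0.277 CPM in either course.

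Most members were weakly expressed. The mean level reached 10 CPM for 97 members on OP50 and 85 on NA22, and it reached 50 CPM for 8 and 6. Per kb of coding length the median member stood at 4.86 CPM per kb on OP50 and 3.60 on NA22, against medians of 8.83 and 7.60 over all genes with a coding length. The members together made up 2525 to 3570 CPM of a library on OP50 and 1946 to 3377 CPM on NA22.

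The highest levels per kb of coding length, over all libraries, belonged to nhr-68, nhr-31, nhr-114, nhr-49, nhr-97 and nhr-66. nhr-68 (WBGene00003658), which acts with nhr-10 to switch on the propionate shunt when vitamin B12 is low, averaged 185 CPM per kb on OP50 and 84.6 on NA22. nhr-31, needed for the proton pump genes of the excretory cell, averaged 79.2 and 102 CPM per kb. nhr-114 (WBGene00003704), which lets worms adjust to the metabolites that a given bacterium supplies, averaged 94.4 and 31.1 CPM per kb. The courses are compared for these genes at matched times below. nhr-49 (WBGene00003639), the central activator of fatty acid oxidation and the fasting response, averaged 65.2 and 71.1 CPM per kb, nhr-97 averaged 52.1 and 63.0, and nhr-66 averaged 42.7 and 34.7.

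Members with a described role were grouped by it. The fat and fasting group holds nhr-49, its dimer partners nhr-80, nhr-13 and nhr-66, the dietary restriction factor nhr-62, the serotonin-linked fat regulator nhr-76, and nhr-64 and nhr-79. Among them nhr-49 kept within a narrow range, from 82.3 CPM at 27 h through a median of 94.9 to 116 CPM at 22 h on OP50, and from 83.8 CPM at 36 h through 103 to 150 CPM at 18 h on NA22. nhr-80, which drives fatty acid desaturase genes, ran from 20.9 CPM at 36 h to 45.8 CPM at 22 h on OP50 and from 26.9 CPM at 34 h to 47.4 CPM at 24 h on NA22. The libraries of the courses overlapped for both genes.

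The group of toxin, pathogen, oxygen and iron responses holds nhr-86, which senses a bacterial phenazine, nhr-57, a target of the hypoxia factor HIF-1, nhr-176, which binds a drug metabolite and drives cyp-35D1, nhr-45, which takes part in mitochondrial surveillance, and nhr-14, a regulator of iron uptake. nhr-86 had the narrowest range of them for its level, from 23.0 CPM at 21 h through a median of 27.2 to 39.4 CPM at 35 h on OP50 and from 22.9 CPM at 18 h through 30.6 to 35.3 CPM at 34 h on NA22. nhr-45 reached 58.2 CPM at 26 h on OP50 and 82.4 CPM at 22 h on NA22, with medians of 34.4 and 42.7 CPM.

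The organ group holds nhr-31, nhr-40, which is needed in muscle and embryo, nhr-69, which acts in insulin secretion, nhr-1, known for its part in mouth form in the related nematode Pristionchus, and the embryonic receptor nhr-2. Receptors with close relatives outside the worm expansion are nhr-6 (the NR4A homolog, needed in the spermatheca), nhr-8 (xenobiotic defence and cholesterol use), nhr-48, nhr-111 and nhr-239. nhr-8 was the most abundant of these per kb at 35.5 CPM per kb on OP50 and 37.3 on NA22. nhr-2 averaged 0.433 CPM on OP50 and 0.222 CPM on NA22. nhr-111 had no count in most libraries and at most 0.0801 CPM, and nhr-239 reached at most 0.420 CPM, so their courses over time could not be followed at this depth.

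**Figure D1:**
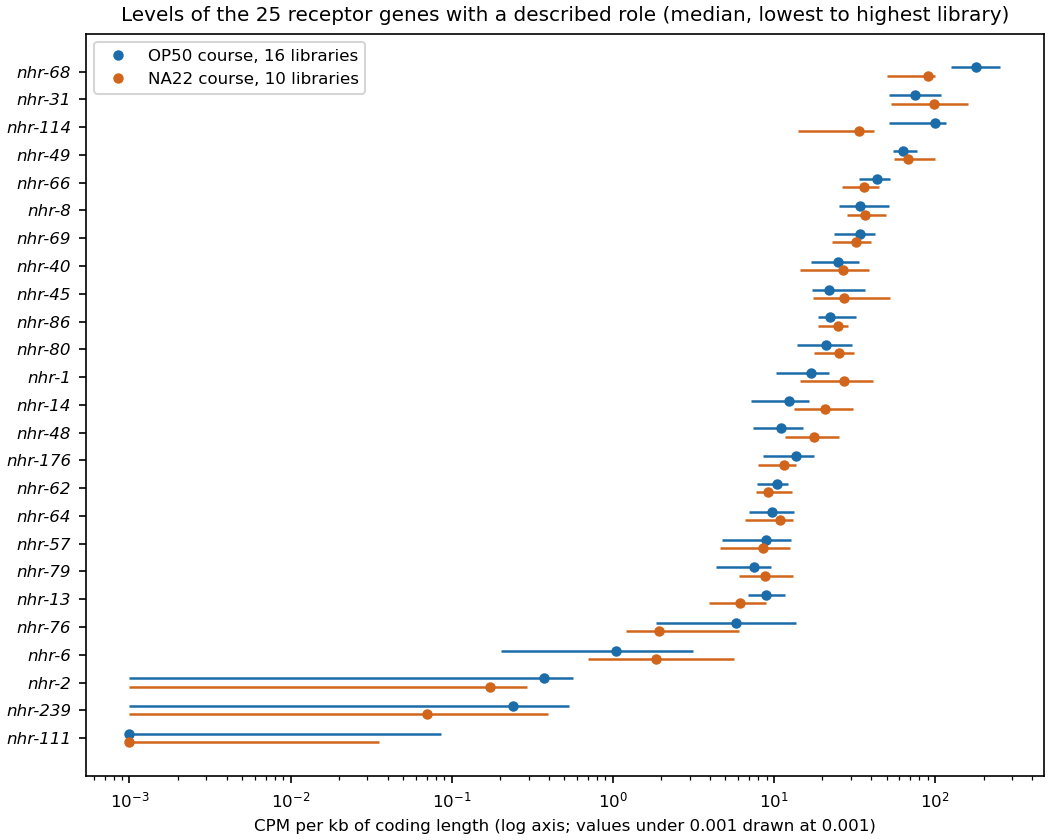
Median (points) and lowest to highest library (lines) of 25 receptor genes with a described role, in CPM per kb of coding length on a log axis, for the 16 libraries of the OP50 course (blue) and the 10 of the NA22 course (orange). The lines of the courses do not meet for nhr-68 and nhr-114 and overlap for the other genes from nhr-31 down to nhr-76, while nhr-2, nhr-239 and nhr-111 lie at the bottom.

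The first question was which receptors cycle with the molts. Each course was fitted with a linear change in time plus a wave of 8 h, and a gene was called oscillating at an adjusted p (edgeR, quasi-likelihood F test, Benjamini-Hochberg over all genes tested) under 0.05 and a fitted swing from trough to peak of 1 (log2) or more. On OP50, 34 of 201 members oscillated (16.9%, against 22.8% of all genes tested). On NA22, 36 of 191 did (18.8%, against 21%), and 22 of 189 did in both (11.6%, against 16.5%). Of the 189 tested in both, a further 10 passed on OP50 alone and 14 on NA22 alone, which does not by itself show a difference between the courses. The shares lay near or below that of all genes. Over all members tested the median peak-to-trough difference was 0.60 (log2) on OP50 and 0.59 on NA22, against 0.59 and 0.56 over all genes tested. Among the called genes, which the call itself selects by size, it was 1.88 and 1.56, against 2.31 and 2.40.

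The 22 that oscillated in both courses were nhr-5, nhr-7, nhr-11, nhr-34, nhr-63, nhr-73, nhr-74, nhr-84, nhr-99, nhr-102, nhr-112, nhr-113, nhr-127, nhr-148, nhr-168, nhr-171, nhr-172, nhr-181, nhr-199, nhr-245, nhr-265 and nhr-280. They were low to moderate in level, with a median of 6.75 CPM on OP50 and 4.94 CPM on NA22 and a highest mean of 42.4 and 40.2 CPM (nhr-34). None of the 22 role group members tested in both courses was among them, by edgeR, DESeq2 or limma, although 6 had an unadjusted p under 0.05 in both. In 19 of those 22 the fitted swing stayed under 1 (log2) in both courses, with a median of 0.41 on OP50 and 0.47 on NA22. At an adjusted p under 0.05 and a smaller swing, nhr-8 had peak-to-trough differences of 0.64 ± 0.18 (log2, fit SE) and 0.55 ± 0.14 (edgeR adjusted p = 0.0245 and 0.0419). For nhr-76 the oscillation was called on OP50 (1.22 ± 0.27, lost without the 26 h library) and missed the threshold on NA22 (1.11 ± 0.32), and for nhr-31 it was called on NA22 (1.01 ± 0.24, lost in 9 of the fits that left out 1 library) with a peak-to-trough difference of 0.70 ± 0.11 on OP50, under the size required. These differences between the courses were not tested.

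**Figure D2:**
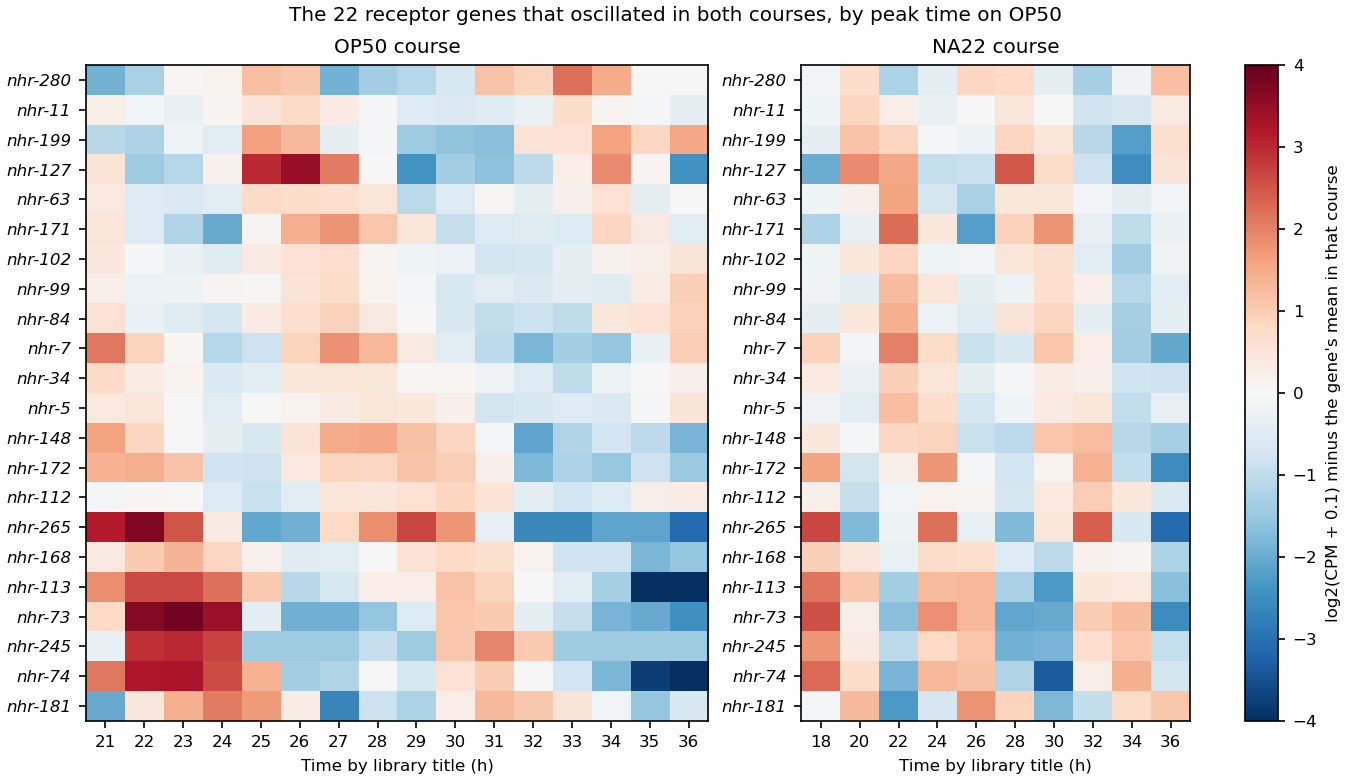
Level of the 22 receptor genes that oscillated in both courses, as log2(CPM + 0.1) minus the mean of the gene within the course, by title time, with genes ordered by fitted peak on OP50. The bands of high level (red) come later by title on NA22 than on OP50, by a median of 2.79 h, and fall at different hours for different genes.

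Among the members called in both courses at a mean level of at least 1 CPM in either, the 6 largest swings, averaged over the courses, were those of nhr-73 (WBGene00003663), nhr-265, nhr-127, nhr-181, nhr-74 and nhr-171, none of which has a role known well enough to state here. Below that level nhr-245 had a fitted swing of 9.36 (log2) on OP50, where 8 libraries held no count. nhr-73 rose from 0.841 CPM at 21 h to 7.85 CPM at 23 h on OP50, dropped to 0.0431 CPM at 26 h, returned to 1.08 CPM at 30 h and had no count at 36 h. On NA22 it stood at 9.19 CPM at 18 h, 0.393 CPM at 22 h, 5.44 CPM at 24 h, 0.269 CPM at 28 h and 3.62 CPM at 34 h. High and low libraries thus alternated in both courses, with a fitted peak-to-trough difference of 6.26 ± 0.70 (log2, fit SE) on OP50 and 4.68 ± 0.53 on NA22 (edgeR adjusted p = 4.7e-06 and 0.00282).

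nhr-265 (WBGene00009608) reached 11.2 CPM at 22 h on OP50, 0.108 CPM at 25 h and 5.51 CPM at 29 h. On NA22 it peaked at 7.05 CPM at 18 h, 5.10 CPM at 24 h and 5.83 CPM at 32 h, with lows of 0.231 CPM at 20 h and again at 28 h. Its fitted swings were 5.05 ± 0.76 and 5.24 ± 0.91 (log2), and the call on NA22 was lost without the 32 h library (edgeR adjusted p = 0.0594). The low of nhr-265 at 25 h on OP50 was 2 counts, under the floor of 3, so depth limits the size of that swing. nhr-127 (WBGene00003717) peaked at 13.7 CPM at 26 h and 4.50 CPM at 34 h on OP50, against 0.137 CPM at 29 h, and at 5.44 CPM at 20 h and 8.32 CPM at 28 h on NA22, against 0.170 CPM at 34 h. Its swings were 5.53 ± 0.55 and 4.42 ± 0.75 (log2).

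nhr-74, the neighbour of nhr-73, peaked at 35.3 CPM at 23 h and 7.35 CPM at 31 h on OP50 and at 28.4, 14.9 and 15.9 CPM at 18, 24 and 34 h on NA22. nhr-181 swung by 3.61 ± 0.54 (log2) on OP50, where it reached 3.71 CPM at 24 h and 2.09 CPM at 31 h. On NA22 its swing was 4.51 ± 1.08 with a highest level of 1.62 CPM at 26 h, and that call was lost when the 22, 30 or 32 h library was left out. nhr-171 swung by 2.72 ± 0.52 and 4.35 ± 0.77, with its highest levels at 3.01 CPM at 27 h on OP50 and 2.05 CPM at 22 h on NA22.

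**Figure D3:**
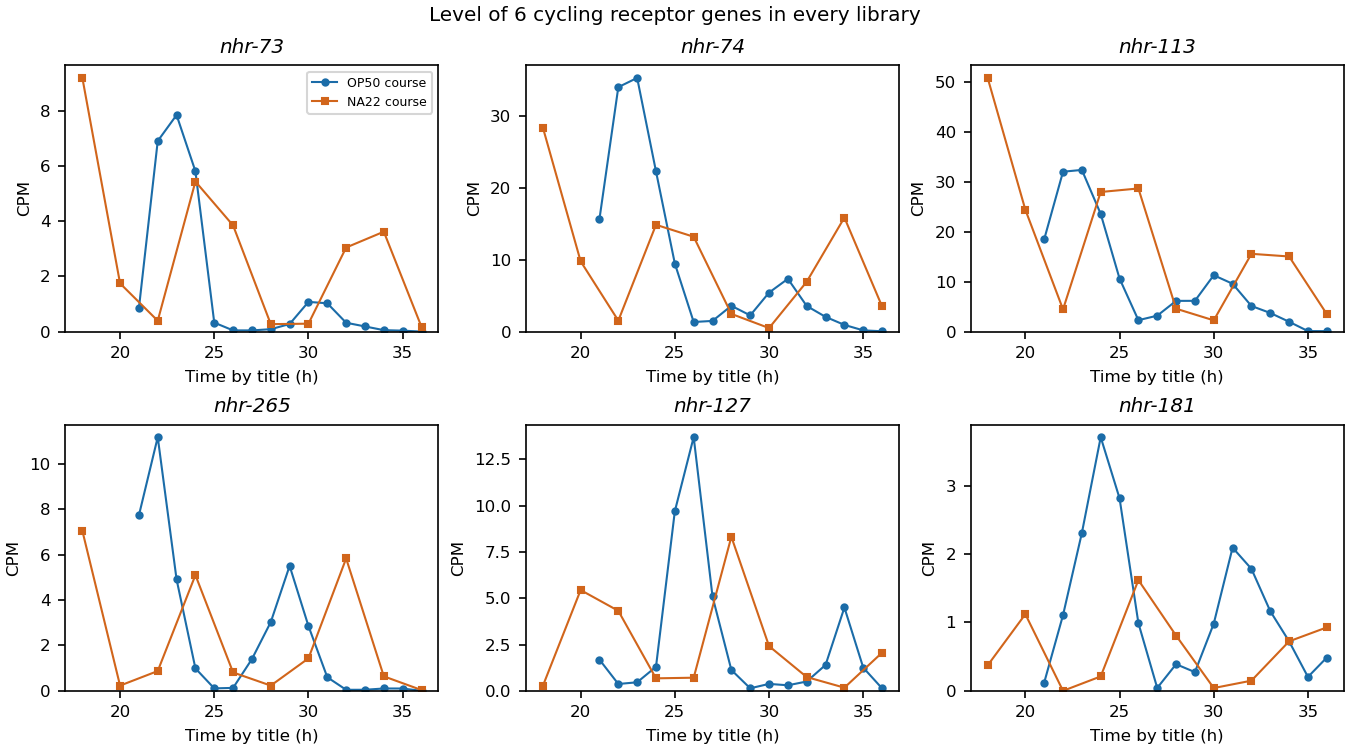
Level in CPM of nhr-73, nhr-74, nhr-113, nhr-265, nhr-127 and nhr-181 in every library by title time, for the OP50 course (blue circles) and the NA22 course (orange squares). Each gene shows separate peaks, as for nhr-127 at 13.7 CPM at 26 h on OP50 and 8.32 CPM at 28 h on NA22, and the first peak of nhr-73, nhr-74 and nhr-113 is the highest in both courses.

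The fitted peaks of the 22 were spread through the cycle. Placed between 24 and 32 h on OP50, 3 fell in the first 2 h (13.6%, against 27.6% of all genes that oscillated in both courses), 7 from 26 to 28 h (31.8%, against 26.2%), 6 from 28 to 30 h (27.3%, against 20.3%) and 6 from 30 to 32 h (27.3%, against 25.9%). On NA22 the peaks came later by title by a median of 2.79 h, with a range of 2.15 to 3.31 h, close to the median of 2.73 h over all genes.

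Some cycling receptor genes were neighbours. Of the 92 pairs of adjacent members, 62 had both genes tested in both courses. In 4 of those pairs both genes oscillated in both courses, and in another 4 only 1 of the genes did. The share over all pairs of adjacent genes is not given here, so this is not read as a trait of the receptors. Fitted peaks repeat every 8 h, and those on NA22 are given in the first cycle after the peak on OP50. nhr-73 and nhr-74 on chromosome I had fitted peaks at 31.0 and 31.1 h on OP50 and at 33.2 and 33.7 h on NA22. nhr-113 and nhr-245, also on chromosome I, peaked at 31.0 h on OP50, and at 33.5 and 33.4 h on NA22. On chromosome V, nhr-84 and nhr-102 peaked at 27.3 and 27.2 h, then at 29.7 and 29.5 h on NA22. The members of these 3 pairs peaked together, whereas nhr-171 and nhr-172 lay about 2 h apart, at 27.0 and 29.0 h on OP50 and at 29.9 and 32.0 h on NA22. Genes outside the naming rule, here nhr-84, nhr-102, nhr-245 and others listed in the processing notes, were chosen after their values were seen. How the authors counted reads that match several genes is not given in the sources used here, so counts of similar neighbours may share reads.

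nhr-245 was detected in bursts. On OP50, 8 of its 16 libraries held no count, while it stood at 1.95, 2.099 and 1.67 CPM at 22, 23 and 24 h and at 0.468, 0.940 and 0.457 CPM at 30, 31 and 32 h. On NA22 it was found in every library, from 0.0770 CPM at 28 h to 2.17 CPM at 18 h. Its neighbour nhr-113 was high at the same hours, with 32.0, 32.4 and 23.6 CPM at 22, 23 and 24 h and 11.3 CPM at 30 h on OP50.

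By chromosome, 5 of the 9 members tested in both courses on chromosome I oscillated in both (55.6%, against 11.1% of all genes tested on that chromosome). On chromosome V, 12 of 123 did (9.76%, against 21.8%), on chromosome IV 4 of 26 (15.4%, against 14.5%) and on chromosome III 1 of 5 (20%, against 10.998%). None of the 11 on chromosome II or the 15 on chromosome X did by the edgeR calls, against 17.1% and 22.7% of all genes tested there. An unadjusted p under 0.05 in both courses was seen for 3 and 4 of them, DESeq2 called none, and limma called 1 on chromosome X. The 5 on chromosome I are nhr-73, nhr-74, nhr-113, nhr-245 and nhr-265, of which 4 form the neighbour pairs above, so they are not independent of each other.

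The oscillation calls depended on the 8 h period. With periods of 7 h and 9 h, 16 and 36 members were called on OP50, none was called on NA22 (53 and 45 of 191 at an unadjusted p under 0.05) and therefore none in both, whereas DESeq2 at 8 h called 25 in both. The share of all genes called under these settings is not given here, so the counts are not read as a trait of the receptors.

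The second question was which receptors changed lastingly as the larvae grew. A rise or fall was called where the slope had an edgeR adjusted p under 0.05 and amounted to 1 (log2) or more over 15 h. Falls far outnumbered rises. On OP50, 43 of 201 members fell (21.4%, against 12.7% of all genes tested) and 3 rose (1.49%, against 21.1%). On NA22, 40 of 191 fell (20.9%, against 12.1%) and 3 rose (1.57%, against 16%). In both courses 22 of 189 fell (11.6%, against 7.84%) and 1 rose (0.529%, against 15%). Without the 18, 34 or 36 h library, 26, 19 and 24 fell on NA22, and 13 fell in both courses without the NA22 library of 34 h, against 11 at a period of 7 h. For these settings the share of all genes is not given here, so it is open whether the excess over all genes held. With DESeq2 size factors 43 fell on OP50 (13.3% of all genes) and 27 on NA22 (10.6%). In limma on the deposited log2 values 47 fell on OP50 (14.5% of all genes) and 30 on NA22 (10.3%). The count on NA22 thus depended on single libraries, scaling and tool.

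The shift went beyond the called genes. The median fitted change of all tested members was -0.50 (log2) on OP50, against 0.04 over all genes, and -0.61 on NA22, against -0.06. The change lay below 0 in 82.6% of the members tested on OP50 and 88.5% on NA22, against 47.9% and 53.9% of all genes. No member rose in one course and fell in the other by edgeR, DESeq2 or limma, or had opposite changes at an unadjusted p under 0.05 in both. Of the 189 tested in both, 108 had no call for cycling or trend in either course. That count is not read as a trait of the receptors, since the share of all genes without a call is not given here.

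In whole animals, fewer cells of a type and less RNA per cell cannot be told apart, and the makeup of the larvae changed over the same hours. All 10 germ cell markers and all 9 sperm markers in the table rose in both courses. The summed germ cell markers had a median of 400 CPM (318 to 463) at 21 to 28 h and 742 CPM (502 to 1194) at 29 to 36 h on OP50, and 425 CPM (273 to 617) at 18 to 26 h and 1022 CPM (759 to 1550) at 28 to 36 h on NA22. Summed sperm markers went from a median of 17.2 CPM (14.8 to 41.95) to 340 CPM (78.6 to 563) on OP50 and from 18.3 CPM (15.2 to 22.0) to 205 CPM (19.4 to 691) on NA22. Of 10 neuron markers, 6 fell in both courses, and their sum went from a median of 530 CPM (436 to 654) to 382 CPM (318 to 467) on OP50 and from 816 CPM (597 to 897) to 505 CPM (425 to 649) on NA22. The 8 intestine markers, from the tissue where many of the studied receptors act, included none that rose or fell in both courses, with summed medians of 2524 and 1991 CPM in the earlier and later part of the OP50 course and 2516 and 2570 CPM on NA22. The part of cell makeup in the falls of the receptors was not tested.

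The only member that rose in both courses was nhr-76 (WBGene00015497), which acts in the intestine in the fat loss driven by serotonin from the nervous system. On OP50 it had its lowest level of 2.67 CPM at 26 h, a median of 8.42 CPM and its highest level of 19.8 CPM at 36 h. On NA22 it went from 1.74 CPM at 22 h through a median of 2.77 to 8.76 CPM at 36 h. On OP50 every library from 29 h on, at 9.83 CPM or more, lay above every library up to 28 h, at 7.01 CPM or less, while on NA22 the earlier and later libraries overlapped. The fitted rise was 3.02 ± 0.31 (log2 over 15 h, fit SE) on OP50 and 1.22 ± 0.28 on NA22 (edgeR adjusted p = 1.21e-06 and 0.00618). Without the 36 h library the rise on NA22 was 0.80, under the minimum of the call.

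Among the members called as falling in both courses at a mean level of at least 1 CPM in either, the 6 largest falls, averaged over the courses, belonged to nhr-73, nhr-265, nhr-150, nhr-113, nhr-270 and nhr-260. nhr-113 (WBGene00003703) went from 32.4 CPM at 23 h to 11.3 CPM at 30 h and 0.0885 CPM at 36 h on OP50, and from 50.8 CPM at 18 h to 28.7 CPM at 26 h, 15.6 CPM at 32 h and 3.51 CPM at 36 h on NA22. Each successive peak was thus lower than the one before, and the fitted falls were -3.69 ± 0.69 and -2.04 ± 0.43 (log2; edgeR adjusted p = 6.78e-04 and 0.0052). nhr-270 fell without a called cycle, from 8.53 CPM at 27 h to 0.531 CPM at 36 h on OP50 and from 14.4 CPM at 18 h to 0.550 CPM at 36 h on NA22. Its fitted falls were -3.58 ± 0.63 and -2.89 ± 0.42 (edgeR adjusted p = 5.25e-04 and 9.55e-04).

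nhr-73 had fitted changes of -4.51 ± 0.69 (log2) on OP50 and -1.92 ± 0.48 on NA22, the latter at an edgeR adjusted p of 0.0506 without the 36 h library. The falls of nhr-265 (-4.64 ± 0.88 and -2.20 ± 0.82), nhr-150 (-4.39 ± 0.65 and -1.74 ± 0.59) and nhr-260 (-3.07 ± 0.47 and -1.53 ± 0.54) kept their call on OP50 whichever library was left out. On NA22 the call was lost in 7, 7 and 6 of the fits that left out 1 library and under 6, 4 and 3 of the other settings, and without the 18 h library the fall of nhr-265 was -0.34 (edgeR adjusted p = 0.693).

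The 22 that fell in both courses also hold nhr-38, nhr-157, nhr-158, nhr-7, nhr-172, nhr-167, nhr-237, nhr-216, nhr-168, nhr-213, nhr-137, nhr-19, nhr-60, nhr-139, nhr-201 and nhr-163. Their falls ran from -1.03 to -5.09 (log2) on OP50 and from -1.01 to -3.07 on NA22, the steepest in both being that of nhr-38, which went from 1.84 CPM at 21 h to 0.0443 CPM at 36 h on OP50 and from 2.24 CPM at 18 h to 0.206 CPM at 36 h on NA22. They were low in level, with medians of 3.95 CPM on OP50 and 2.89 CPM on NA22. Of the 22, 14 lie on chromosome V, which holds 123 of the 189 members tested in both courses. On chromosome I 3 of 9 fell, on IV 2 of 26, on X 2 of 15, on II 1 of 11 and on III none of 5. The share of all genes that fell on each chromosome is not given here, so no chromosome is singled out. A total of 6 both oscillated and fell in both courses, namely nhr-7, nhr-73, nhr-113, nhr-168, nhr-172 and nhr-265. No share of all genes stands beside these 6, so they are not read as a trait of the receptors.

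**Figure D4:**
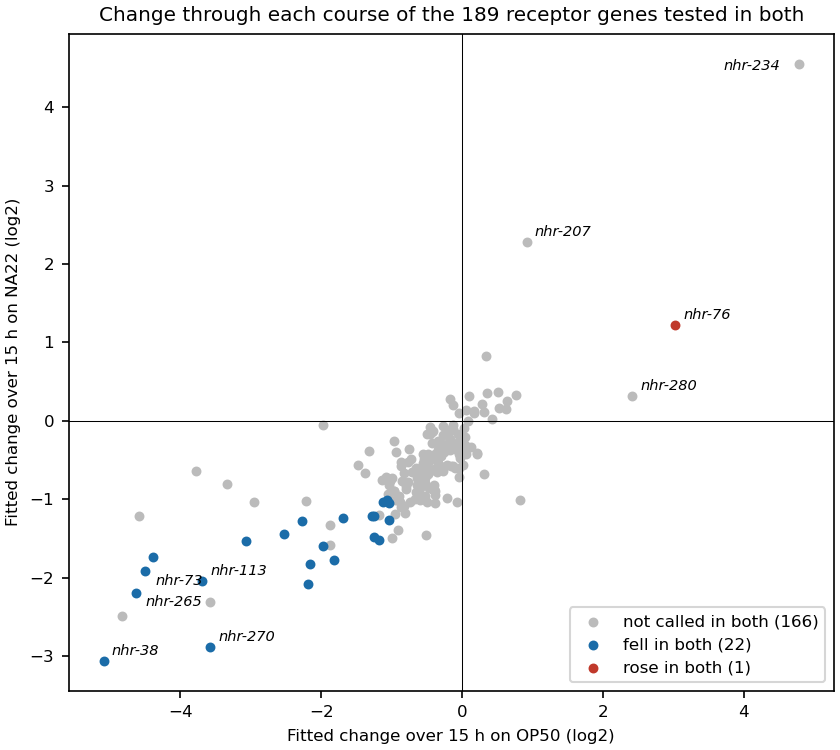
Fitted change over 15 h (log2) on OP50 (x axis) and the NA22 course (y axis) of the 189 receptor genes tested in both, with 22 that fell in both in blue, 1 that rose in both in red and the others in grey. Most points lie at the lower left, with medians of -0.50 and -0.61 over all members tested in each course, and nhr-76 is the only red point.

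No role group member fell in both courses by edgeR, DESeq2 or limma (7 of 22 lay below 0 at an unadjusted p under 0.05 in both). nhr-14 had changes of -1.07 ± 0.24 (log2) on OP50 and -0.73 ± 0.15 on NA22 (edgeR adjusted p = 0.00177 and 0.00457), the latter under the minimum. nhr-6 had -3.34 ± 0.63 on OP50 (adjusted p = 5.89e-04) and -0.81 ± 0.87 on NA22 (adjusted p = 0.592). For nhr-1 the changes were -0.82 ± 0.17 and -1.09 ± 0.18 (adjusted p = 9.75e-04 and 0.00151), and for nhr-40 they were -0.87 ± 0.13 and -1.09 ± 0.14 (adjusted p = 4.64e-05 and 4.09e-04). Both passed the minimum on NA22, and not without its 36 h library. The test of the difference in trend between the courses gave edgeR adjusted p = 0.563, 0.385, 0.756 and 0.693 for these 4 in the same order, which does not show that the trends are alike. nhr-49 had changes of -0.13 ± 0.11 on OP50 (adjusted p = 0.35) and -0.57 ± 0.08 on NA22 (adjusted p = 4.29e-04), under the minimum in both.

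Rises were also called for nhr-229 and nhr-280 on OP50 and for nhr-207 and nhr-234 on NA22. nhr-229 had too few counts on NA22 for the test. nhr-234 went from 0.462 CPM at 23 h to 33.0 CPM at 30 h and back to 0.841 CPM at 36 h on OP50. On NA22 it stood at 0.0621 CPM at 18 h, 1.35 CPM at 22 h and 0.203 CPM at 26 h, then reached 9.07 CPM at 34 h and was at 2.85 CPM at 36 h. The level thus came down from its peak by the last library in both courses, though on NA22 that library still stood above the 1.35 CPM of 22 h. The fitted changes of nhr-234, 4.78 ± 1.38 and 4.56 ± 1.03 (log2; edgeR adjusted p = 0.0658 and 0.00704), are not read as a peak level kept to the end. Its neighbour on chromosome II, nhr-235, had its highest level of 25.5 CPM at 29 h on OP50, with 22.6 CPM at 21 h and 4.39 CPM at 24 h, and 0.305 CPM at 35 h. On NA22 it reached 14.7 CPM at 22 h and 9.62 CPM at 30 h and was at 0.0344 CPM, 1 count, at 36 h.

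The difference of trends between the courses was tested for 205 members, and none passed an adjusted p of 0.05 in edgeR (0.541% of all genes did). At an unadjusted p under 0.05 there were 16, while DESeq2 called 3 and limma 2. These 3 counts are given without the share of all genes and are not read as a trait of the receptors.

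The third question was whether the level of a receptor differed between the cultures. Because peaks came nearly 3 h later by title on NA22, the courses were compared both at shared titles (22 to 36 h, 8 pairs) and with the NA22 course at 24 to 36 h against the OP50 course at 21 to 33 h (a 3 h offset, 7 pairs). These comparisons share libraries and are not independent, and a call needed an edgeR adjusted p under 0.05 and a difference of at least 1 (log2). At the offset 28 of 196 members were lower on NA22 (14.3%, against 8.06% of all genes tested) and 1 was higher (0.510%, against 4.86%). At shared titles 9 of 194 were lower (4.64%, against 7.74%) and 2 were higher (1.03%, against 1.79%). A total of 8 members were lower in both comparisons (nhr-68, nhr-101, nhr-114, nhr-116, nhr-136, nhr-152, nhr-156 and nhr-208) and 1 was higher in both (nhr-178). How many of all genes were called in both is not given here, so these 2 counts are not read as a trait of the receptors.

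The 28 lower members had differences from -1.01 to -2.51 (log2), and in 23 of them the NA22 course was lower in every pair. The paired call itself favours such genes, and no share over all genes stands beside the 23, so they add no support. In 9 (4.59% of those tested, against 2.34% of all genes) the highest NA22 library lay below the lowest OP50 library of the comparison. Of the 130 members tested on chromosome V, 23 were lower (17.7%, against 12.3% of all genes tested on that chromosome). Over all tested members the median difference was -0.43 (log2) at the offset, against -0.05 over all genes, and -0.21 at shared titles, against -0.13. Cell type markers were summed in the same libraries of the offset comparison, and all sums but that of muscle overlapped between the courses. No muscle, skin, neuron or intestine marker was itself called higher or lower on NA22. The sum of 8 muscle markers had a median of 7530 CPM (6400 to 12499) on OP50 and 12805 CPM (12668 to 16305) on NA22, without overlap. The sum of 8 skin markers had a median of 1501 CPM (1346 to 2864) and 2697 CPM (2010 to 3374), that of 10 neuron markers 450 CPM (337 to 654) and 564 CPM (425 to 728), and that of 8 intestine markers 2091 CPM (1580 to 2899) and 2570 CPM (1547 to 3330). Germ cell markers had 424 CPM (318 to 700.1) and 867 CPM (519 to 1550), with 3 of 10 called higher on NA22, and sperm markers 23.3 CPM (14.8 to 341) and 44.5 CPM (18.3 to 691), with 4 of 9 called higher. The part of cell makeup in the differences of the receptors was not tested.

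Both members of the diet group were lower on NA22. nhr-114 ranged from 103 to 141 CPM in the OP50 libraries of the offset comparison and from 27.8 to 52.1 CPM in those of the NA22 course. The groups did not overlap, the NA22 course was lower in 7 of 7 pairs, and the difference was -1.64 ± 0.08 (log2, fit SE; edgeR adjusted p = 3.35e-06). Over the whole courses nhr-114 had its lowest level on OP50 at 36 h, 64.5 CPM, and its highest on NA22 at 26 h, 52.1 CPM. nhr-68 ranged from 144 to 293 CPM on OP50 and from 79.4 to 115 CPM on NA22, again without overlap, with a difference of -1.13 ± 0.12 (adjusted p = 9.64e-05). At shared titles the differences were -1.72 ± 0.21 for nhr-114 and -1.13 ± 0.12 for nhr-68.

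**Figure D5:**
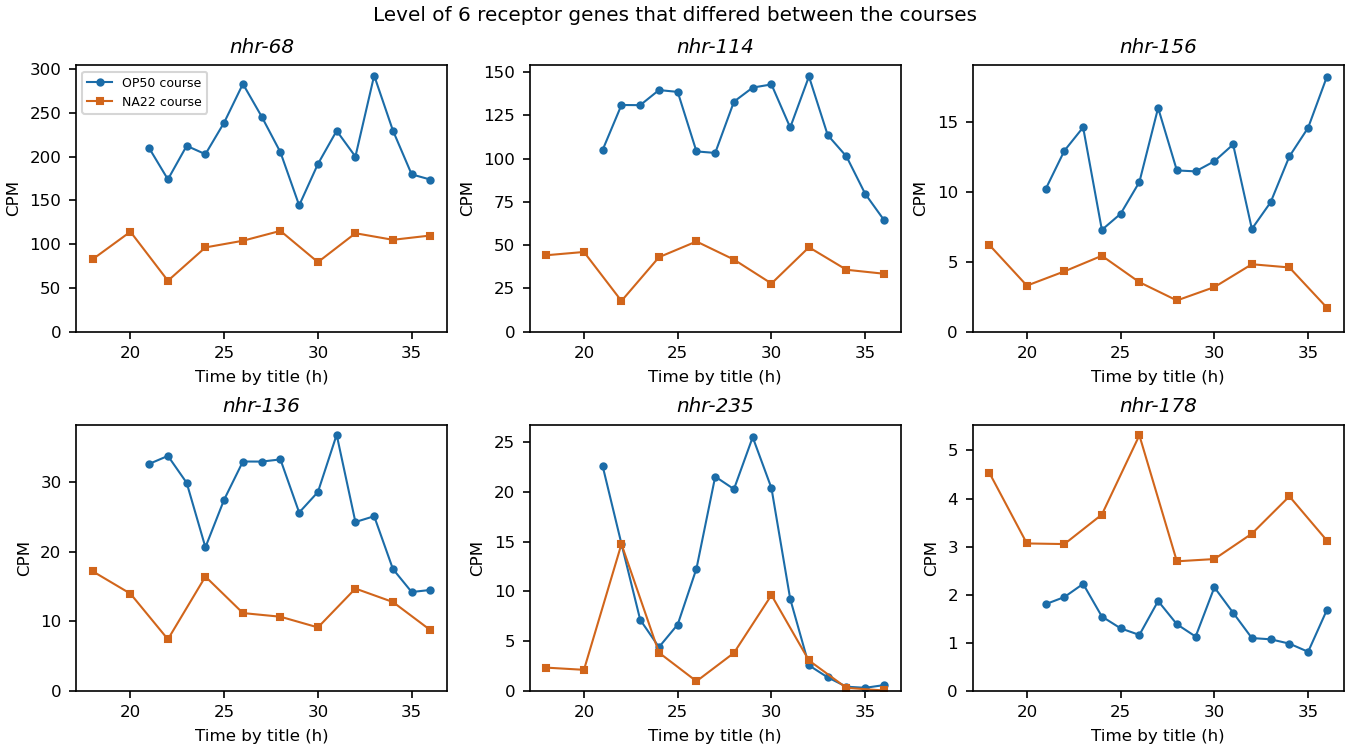
Level in CPM of nhr-68, nhr-114, nhr-156, nhr-136, nhr-235 and nhr-178 in every library by title time, for the OP50 course (blue circles) and the NA22 course (orange squares). nhr-68 and nhr-114 are lower in every NA22 library than in any OP50 library, nhr-235 shows peaks in both courses, and nhr-178 is higher on NA22.

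acdh-1, the propionate shunt dehydrogenase that nhr-10 and nhr-68 switch on, was also lower on NA22. It ranged from 3202 to 6100 CPM on OP50 and from 722 to 2953 CPM on NA22 at the offset, a difference of -1.46 ± 0.19 (log2; edgeR adjusted p = 3.01e-04). nhr-10, counted apart from the members, differed by -0.42 ± 0.10, under the minimum.

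The 4 largest differences at a mean level of at least 1 CPM belonged to nhr-235, nhr-155, nhr-156 and nhr-172. nhr-156 (WBGene00015897) had 8.45 to 16.05 CPM on OP50 and 1.72 to 5.44 CPM on NA22, with no overlap, and a difference of -1.79 ± 0.18 (log2; edgeR adjusted p = 7.47e-05) that was -1.68 ± 0.31 at shared titles. nhr-136, named for its place among the 8 called in both comparisons, had 25.1 to 36.8 CPM and 8.73 to 16.4 CPM, without overlap, and a difference of -1.38 ± 0.12. The other 3 of the largest differences swing steeply in at least 1 course, and their libraries overlapped between the courses. nhr-235 differed by -2.51 ± 0.42 at the offset (1.35 to 25.5 CPM against 0.0344 to 9.62 CPM), nhr-155 by -2.35 ± 0.40 (0.0466 to 9.13 CPM against 0.0344 to 1.49 CPM) and nhr-172 by -1.75 ± 0.26 (1.40 to 9.01 CPM against 0.172 to 5.10 CPM). At shared titles none of the 3 was called, with -1.27 ± 0.50, -0.37 ± 0.96 and -1.29 ± 0.59 (edgeR adjusted p = 0.111, 0.863 and 0.191), and without the pair block none was called at the offset (adjusted p = 0.103, 0.0947 and 0.11).

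The single member higher at the offset was nhr-178, with 1.07 to 2.22 CPM on OP50, 2.69 to 5.32 CPM on NA22 and a difference of 1.15 ± 0.17 (log2; edgeR adjusted p = 4.08e-04) that was 1.21 ± 0.24 at shared titles. The libraries did not overlap. nhr-277 was higher at shared titles (1.11 ± 0.20) and stood at 0.97 ± 0.22 at the offset. nhr-76 was lower on NA22 at shared titles (-1.38 ± 0.29) and stood at -0.98 ± 0.20 at the offset, where the NA22 course was lower in 7 of 7 pairs. That value missed the minimum, and it passed in 9 of the fits that left out 1 library and with total counts.

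In the fat and fasting group no member was called at the offset by edgeR, DESeq2 or limma with all libraries, with 4 of 8 at an unadjusted p under 0.05, nhr-76 being the nearest. nhr-49 differed by 0.01 ± 0.06 (log2) and nhr-80 by 0.13 ± 0.11, while nhr-13 differed by -0.72 ± 0.12 and nhr-66 by -0.42 ± 0.10 (edgeR adjusted p = 7.23e-04 and 0.00596), under the minimum. In the response and organ groups nhr-14 stood at 0.61 ± 0.10 and nhr-1 at 0.42 ± 0.09, with the NA22 course higher in 7 of 7 pairs for both, and also under the minimum. In the same groups nhr-57 stood at -0.47 ± 0.18, nhr-40 at -0.26 ± 0.08 and nhr-69 at -0.20 ± 0.08 (edgeR adjusted p = 0.0461, 0.0173 and 0.0499), lower on NA22 in 5, 7 and 6 of 7 pairs. Of the conserved receptors, nhr-6 differed by 0.88 ± 0.19 and nhr-48 by 0.50 ± 0.10, each higher on NA22 in 7 of 7 pairs.

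A list of 11 genes tied to these receptors in earlier work, of which 10 could be tested, showed 4 lower and 1 higher on NA22 at the offset. fat-7, a stearoyl-CoA desaturase under nhr-49 and nhr-80, went from 5.39 to 21.1 CPM on OP50 to 0.115 to 0.632 CPM on NA22 (-5.40 ± 0.21, edgeR adjusted p = 6.42e-07). fat-5, a palmitoyl-CoA desaturase, differed by -1.14 ± 0.24 and cyp-35D1, the target of nhr-176, by -1.35 ± 0.27, besides acdh-1. Both fat-5 and cyp-35D1 oscillated in both courses, and their libraries overlapped. fat-5 had 26.0 to 87.0 CPM on OP50 and 4.05 to 50.6 CPM on NA22. cyp-35D1 had 0.481 to 11.8 CPM on OP50 and 0.759 to 6.01 CPM on NA22. The higher gene was lbp-8, the fatty acid carrier that signals from lysosome to nucleus through nhr-49 and nhr-80 (1.56 ± 0.28). nhr-49, nhr-80 and nhr-176, the receptors named with these genes, had no called difference. Of 8 coregulators, mdt-15, the Mediator subunit that works with nhr-49, was higher on NA22 (65.0 CPM at most on OP50 and 86.9 CPM at least on NA22, 1.10 ± 0.12), and the other 7 were not called.

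The scaling of the libraries bears on these counts. With total counts in place of TMM the median difference of all genes moved from -0.05 to -0.34 (log2) at the offset. There 48 members were lower, with 14.9% of all genes, and none was higher (5 at an unadjusted p under 0.05), with 2.44% of all genes. In limma on the deposited log2 values, in which the authors scaled the courses to different totals, 9 were lower (2.40% of all genes) and 1 was higher (5.18%). Without the pairs as a block edgeR found 16 lower (5.57%) and 1 higher (1.86%). At shared titles total counts gave 18 lower (14.3% of all genes) and none higher (7 at an unadjusted p under 0.05, with 0.934% of all genes), and limma 4 (2.38%) and 3 (3.45%). nhr-68 had -0.94 in limma and nhr-178 had 0.87 with total counts, both under the minimum, while nhr-114 and nhr-156 kept their calls under every setting and without any single library.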

How the data were processed

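Whole larvae of 2 time courses were measured as 26 total RNA libraries made with the ScriptSeq v2 kit, per the labels' protocols. The authors deposited raw counts per gene. They also deposited log2 values, which matched, to within 5e-05, counts brought to the average library total of the course, with 8 added before the logarithm. The sources used here do not give the aligner, counting tool, strand handling, build or annotation, so no coordinates are printed. Names were joined by WormBase identifier, and chromosomes, neighbours and coding lengths come from the Ensembl 115 annotation of WBcel235.

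Genes reaching 10 counts, rescaled to a library of median size, in 3 or more libraries were fitted with edgeR 4.0.16 in R 4.3.3 (TMM, robust quasi-likelihood F tests, Benjamini-Hochberg over all genes), after a run on simulated counts. Each course was fitted on its own with a slope in time and an 8 h wave (cosine and sine). Courses were compared with time, or pair at a 3 h offset, as a block, and slopes by a course by time term over all 26 libraries. Alternatives were DESeq2 1.42.0, its size factors, total counts, limma 3.58.1 on the log2 values, no filter, 7 h and 9 h periods, quadratic time, no block and each library left out. Floors cover counting error only, and values after ± are standard errors of the fits.

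The text names all members of 5 role lists and, at a mean of at least 1 CPM, the 6 largest swings, rises and falls called in both courses, the 4 highest and 4 lowest differences called at the offset and the 6 most abundant per kb. All other members named, such as nhr-34, nhr-38, nhr-136, nhr-207, nhr-234, nhr-245 and nhr-277, were chosen after their values were seen. Members, lists and the offset were chosen with earlier results of these data known.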

Additional observations from a re-analysis of the deposited data

Results flagged for a closer look

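In 2 cases a single library of the NA22 course stood apart from the other 9 for a gene with a described role. nhr-86 had 22.86 CPM at 18 h, the lowest and earliest library, against 28.7 CPM at 20 h and up to 35.3 CPM at 34 h, and on the scale of log2(CPM + 0.5) the gap was 0.521 of the whole range of the 10 libraries. nhr-111 had 0.03297 CPM at 20 h, which is 1 count, against 0 in the other libraries. These libraries differ in time and are not replicates. The rule was run on the 41 members picked by the naming rule, and chance gives about 1 such case in 20 groups, so 2 cases are near that rate. For nhr-111 a single count beside counts of 0 makes the gap the whole range.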

How the results depend on the processing

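Counts are of receptor genes called, given without the share of all genes. A period of 7 h gave 16 oscillating on OP50, and periods of 7 h and 9 h gave 0 on NA22 and 0 in both courses (at 7 h, 52 and 53 had an unadjusted p under 0.05 on OP50 and NA22, and at 9 h 97 and 45), against 25 by DESeq2 at 8 h. At 7 h, 11 fell and 0 rose in both courses. On NA22, 27 fell with DESeq2 size factors and 30 in limma. DESeq2, no low count filter, the 9 h period and quadratic time each gave 2 rising in both courses, and no filter gave 5 rising on NA22. At the 3 h offset DESeq2 found 4 higher, DESeq2 size factors 2 and total counts 0. Total counts found 48 lower and limma 9. At shared titles total counts found 0 higher (7 at an unadjusted p under 0.05) and 18 lower, and limma 4 lower. A trend difference was called for 3 by DESeq2, 2 by limma and 1 with DESeq2 size factors.

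Without the time or pair block (no replicate block), 16 were lower at the offset in place of 28, and the other 3 counts of course differences were the same; the replicate numbers are names only and pair no samples.

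Leaving out each library in turn gave these ranges: oscillating 28 to 36 on OP50, 24 to 36 on NA22 and 17 to 23 in both; falling 33 to 48, 19 to 41 and 13 to 27; rising 2 to 4, 2 to 4 and 0 to 2; at the offset 1 to 4 higher and 20 to 30 lower; at shared titles 2 higher throughout and 7 to 11 lower; trend difference 0 to 2. Falls on NA22 numbered 26, 19 and 24 without its 18, 34 and 36 h libraries, and falls in both courses 13 without its 34 h library. The rise in both courses was 0 without the NA22 library of 36 h and 2 without the OP50 library of 34, 35 or 36 h. At the offset 4 were higher without the OP50 library of 23 h or the NA22 library of 26 h. The cause was not tested. Of the trends and course differences of named genes, none of 40 called values changed sign under an alternative, and 38 of the values without a call did, such as the offset difference of nhr-49 (-0.0125 to 0.0301 with each library left out) and that of nhr-155 at shared titles (-1.001 to 0.286). Swings of genes near or under 3 counts, such as nhr-73, nhr-171, nhr-181, nhr-245 and nhr-265 at their lows, are limited by depth.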
